A study of Homo sapiens with 7 samples.

Results

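The SLC25 genes encode the mitochondrial carrier family, and 48 of the 26175 genes listed in the RNA-seq table carry a symbol made of SLC25A and a number. Each of these 48 genes was described by its steady-state transcript level and by the transcription start sites (TSSs) called at its promoter. The cells, labelled T-47D, are a human breast cancer line, and the study's methods name the A1-2 derivative, which overexpresses rat glucocorticoid receptor and carries a stably integrated MMTV luciferase reporter. All samples share this background and 1 growth condition, 10% serum followed by 5% charcoal-stripped serum for at least 24 hours, so that no treatment is compared. RNA-seq was performed on 3 replicates, which the authors merged into 1 FPKM (fragments per kilobase of transcript, scaled to the size of the library) per gene, and Start-seq, which sequences the capped 5' ends of short nuclear RNA, was performed on 2 replicates, of which replicate 1 gave the TSS calls. There is therefore no error between replicates for any value, no test was run, and the 95% intervals given with shares (exact Clopper-Pearson) cover only the counting of genes or calls.

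The luminal breast epithelial markers looked at were present, and the few basal, mesenchymal and leukocyte markers looked at were all under 1 FPKM. All 8 luminal markers had an FPKM of at least 44.1 (the level of ESR1), with KRT8 highest at 1142. Of the 4 basal or mesenchymal markers, KRT5, KRT14 and ZEB1 were listed at 0 and VIM at 0.864, while the leukocyte markers PTPRC and CD3E were listed at 0.0208 and 0.

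Mitochondrial carriers are encoded in the nucleus, made in the cytosol and, for most members, inserted into the inner mitochondrial membrane by the TIM22 complex. They exchange nucleotides, phosphate, carboxylates, amino acids and cofactors between the cytosol and the matrix, and so link oxidative phosphorylation to the metabolism of the rest of the cell. A few members depart from this plan, such as SLC25A17 in the peroxisome and SLC25A46 at the outer mitochondrial membrane.

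Start-seq gives the position of initiation on both strands. At a promoter, the gene TSS is the start in the direction of the gene, the upstream antisense TSS (uaTSS) is a start on the opposite strand upstream of it, and the downstream antisense TSS (daTSS) is a start on the opposite strand downstream of it, pointing back towards the promoter. The promoters below are shown because their sequence or their calls recur in the results. They are the 100 nts upstream of the called gene TSS in hg19, read 5' to 3' on the strand of the gene, for the inner-membrane ADP/ATP carrier SLC25A5 (chrX:118602307-118602406, plus strand), the oxoglutarate carrier SLC25A11 (chr17:4843342-4843441, minus strand) and the S-adenosylmethionine carrier SLC25A26 (chr3:66271378-66271477, plus strand). Capitals mark TATAT in SLC25A5, a match to the NRF1 pattern in SLC25A11, and CCGGAAG (ETS pattern) followed by ATGGCGGC (YY1 pattern) in SLC25A26. GC boxes and CCAAT boxes are not capitalised.
SLC25A5: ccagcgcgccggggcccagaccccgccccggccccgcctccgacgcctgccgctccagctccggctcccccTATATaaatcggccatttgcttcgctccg
SLC25A11: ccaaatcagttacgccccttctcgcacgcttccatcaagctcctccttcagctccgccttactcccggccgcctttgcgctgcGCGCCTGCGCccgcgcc
SLC25A26: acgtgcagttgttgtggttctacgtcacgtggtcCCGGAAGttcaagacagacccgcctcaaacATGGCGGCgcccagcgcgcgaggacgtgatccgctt

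Transcript levels of the family ranged from 0 to 257 FPKM. An FPKM of at least 1 was found for 38 of the 48 genes (79.2%, 95% interval 65.0% to 89.5%), beside 46.9% of all listed genes and 60.1% of the 18975 listed genes that the reference annotates as protein-coding. Of these 38 genes, 15 were below 10 FPKM, 19 lay between 10 and 100, and 4 reached at least 100. The other 10 genes comprised 6 above 0 and under 1 FPKM and 4 that were listed at 0. The median of the 48 genes was 9.0 FPKM, beside 4.06 for protein-coding genes and 0.528 for all listed genes.

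The 4 genes at or above 100 FPKM were SLC25A5, SLC25A3, SLC25A39 and SLC25A1, and they held 59.9% of the FPKM summed over the family. SLC25A5, which exchanges cytosolic ADP for matrix ATP, had the highest level at 257. SLC25A3, which brings phosphate into the matrix for ATP synthesis, followed at 240. SLC25A39, a carrier required for glutathione import into mitochondria, had 191, and SLC25A1, which exports citrate for cytosolic acetyl-CoA, had 119. The next 6 levels were lower and closer together. SLC25A10, the dicarboxylate carrier, had 66.0 FPKM, SLC25A11, which exchanges malate for oxoglutarate, had 40.2, and SLC25A44, a carrier of branched-chain amino acids, had 37.6. SLC25A23, a calcium-regulated carrier of ATP-Mg and phosphate, had 29.2, SLC25A38, which carries glycine for heme synthesis, had 28.5, and SLC25A20, which brings acylcarnitines in for fatty acid oxidation, had 27.6. Without replicate values, it cannot be said which neighbours in this order differ beyond their spread.

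**Figure D1:**
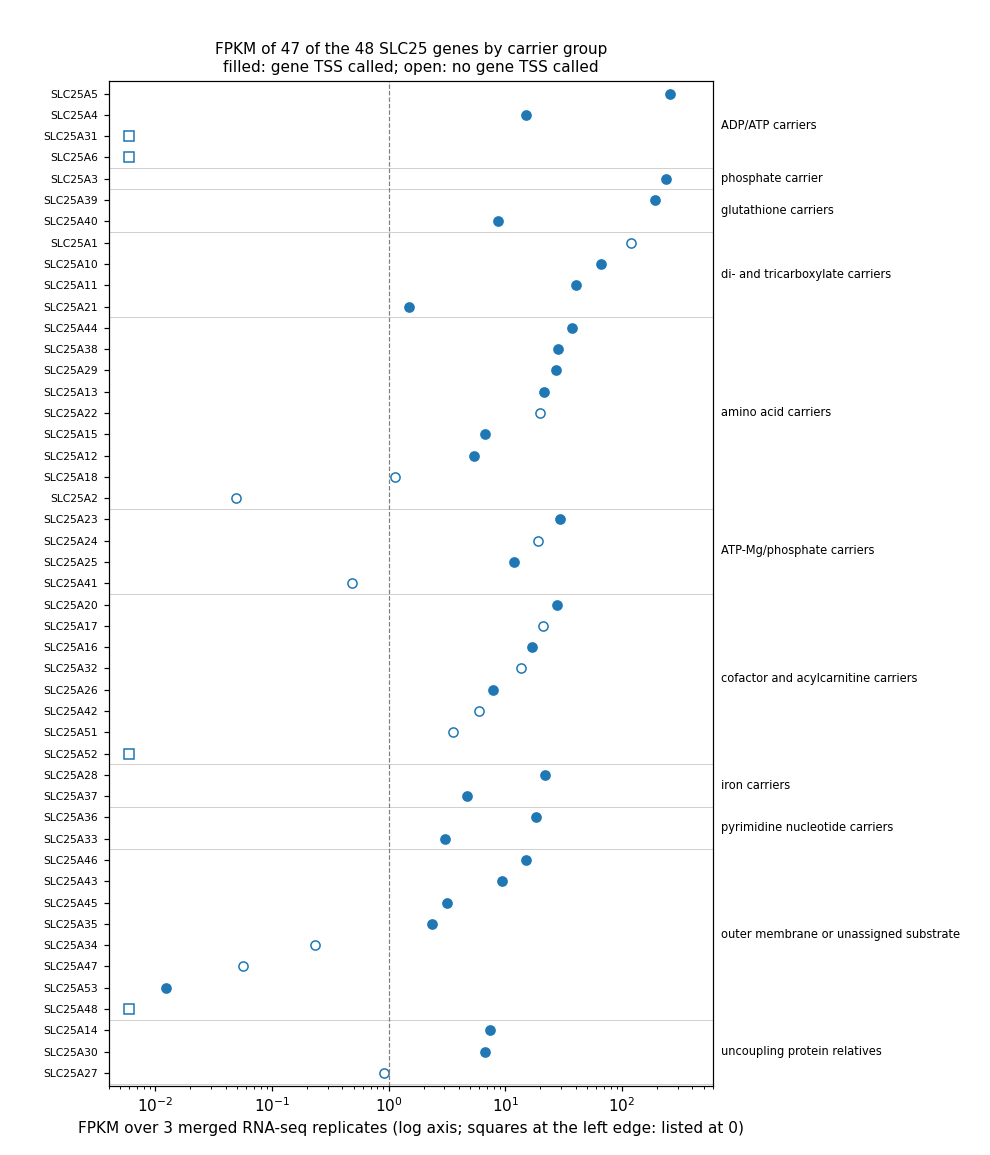
FPKM of 47 of the 48 SLC25 genes, 1 merged value per gene, on a log axis, grouped by role, with genes that have a called gene TSS distinguished from those without one. Levels span from genes listed at 0, drawn at the edge of the axis, to 257 for SLC25A5, and SLC25A1 at 119 is the highest gene without a call.

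Within role groups, levels were unequal. The ADP/ATP carriers showed the widest range, with SLC25A5 at 257, SLC25A4, the form known from heart and muscle, at 14.9, and both SLC25A31, the form known from testis, and SLC25A6 listed at 0. SLC25A5 was thus 17.2-fold above SLC25A4. The longest open reading frames of SLC25A5 and SLC25A4, both 897 nts long, were 77.9% identical, and those of SLC25A5 and SLC25A6 were 79.4% identical.

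The value of SLC25A6 cannot be read as absence of its transcript. This gene lies in the pseudoautosomal region, which the reference holds on both X and Y, and its locus is listed on Y. Of the 18 listed genes annotated on both X and Y, all listed on Y, 15 were at 0, among them VAMP7, ZBED1, DHRSX and GTPBP6, and the highest, CD99, had 0.0612. No gene TSS was called on Y at all. A call was tied to a listed gene only on the chromosome of its locus, so none of the 18 could have one. The authors used uniquely mapped Start-seq fragments for calling, whereas how the FPKM treated fragments matching both chromosomes is not given in the sources used here. Without SLC25A6, the family median was 9.35 FPKM.

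The paired carriers of glutathione, iron and pyrimidine nucleotides had a higher and a lower member each. SLC25A39 was 22.2-fold above its relative SLC25A40, which had 8.64 FPKM. Of the mitoferrins, which bring iron in for heme and iron-sulfur clusters, SLC25A28 had 22.1 and SLC25A37 had 4.71. Of the pyrimidine nucleotide carriers, SLC25A36 had 18.4 and SLC25A33 had 3.02. In each of these pairs both members exceeded 1 FPKM and both had a called gene TSS.

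The di- and tricarboxylate carriers had the highest median among groups of at least 3 members, 53.1 FPKM, with all 4 genes above 1. Their range ran from SLC25A1 at 119 to SLC25A21, the oxodicarboxylate carrier, at 1.51. Among the 4 ATP-Mg/phosphate carriers, SLC25A23 had the highest level at 29.2 and SLC25A41 the lowest at 0.488. These 2 genes are neighbours on chromosome 19, with 6284 nts between their listed loci, and their levels differed 59.8-fold. SLC25A24 at 18.9 and SLC25A25 at 11.9 lay between them.

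Of the 9 amino acid carriers, 8 exceeded 1 FPKM, with a median of 19.7. SLC25A44 was highest at 37.6 and SLC25A2, an ornithine carrier, lowest at 0.0495, while the other ornithine carrier, SLC25A15, had 6.73. Of the aspartate-glutamate carriers of the malate-aspartate shuttle, SLC25A13 had 21.4 and SLC25A12 had 5.38, a 3.98-fold difference. Of the glutamate carriers, SLC25A22 had 19.7 and SLC25A18 had 1.14.

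The cofactor and acylcarnitine carriers also had 8 of 9 genes above 1 FPKM, with a median of 11.1. They ranged from SLC25A20 at 27.6 to SLC25A52 at 0. SLC25A52 is a close copy of the mitochondrial NAD carrier SLC25A51, which had 3.57 FPKM. Their longest open reading frames were 94.6% identical, so that both values are uncertain where fragments match either gene.

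The relatives of the uncoupling proteins were all below 10 FPKM, with SLC25A14 highest at 7.40, SLC25A30 at 6.65 and SLC25A27 lowest at 0.917. The 8 genes at the outer membrane or with a less settled substrate had the lowest group median, 1.29. Their highest member was SLC25A46 at 15.0, followed by SLC25A43 at 9.35, and their lowest was SLC25A48, listed at 0. In this group 4 of 8 genes exceeded 1 FPKM. SLC25A47 had 0.0560 although the basic amino acid carrier SLC25A29, 16794 nts away on chromosome 14, had 27.1.

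Compared with 2 other sets of genes, the family lay between them. The 286 other SLC genes whose symbols have the same form, most of them carriers of other membranes, had a median of 0.632 FPKM, and 46.9% of them reached 1. The 77 mitochondrial ribosomal protein genes had a median of 67.9 and all reached 1. Among genes with at least 1 FPKM, the medians were closer, at 15.0 for the SLC25 genes, 10.7 for the other SLC genes and 15.8 for protein-coding genes. The mitochondrial ribosomal protein genes spanned 11.1 to 209 FPKM, and 20 of the 48 SLC25 genes lay within that range.

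A gene TSS was called for 31 of the 48 genes (64.6%, 95% interval 49.5% to 77.8%), beside 51.0% of protein-coding genes. SLC25A6 is counted among those without a call, although its listed locus on Y allowed none. None of the 31 had a second call. The authors merged overlapping search windows of the same gene and called a single gene TSS per window, so only a distant start could give one. Calls were more frequent among genes with higher levels. A gene TSS was listed for 30 of the 38 genes with at least 1 FPKM (78.9%, 62.7% to 90.4%), beside 79.7% of protein-coding genes at that level. Of the 10 genes under 1 FPKM, 1 had a call (10.0%, 0.253% to 44.5%), beside 7.76% of protein-coding genes under 1. That gene was SLC25A53, with an FPKM of 0.0124 and a call 65 nts downstream of an annotated transcript start. SLC25A53 also had a uaTSS, 143 nts upstream of its gene TSS.

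The 8 genes with at least 1 FPKM and no called gene TSS were SLC25A1 (119 FPKM), SLC25A17 (21.2), SLC25A22 (19.7), SLC25A24 (18.9), SLC25A32 (13.6), SLC25A42 (5.91), SLC25A51 (3.57) and SLC25A18 (1.14). Of the 4 genes at or above 100 FPKM, 3 had a call and SLC25A1 did not (75% called, 19.4% to 99.4%), beside 90.5% of protein-coding genes at that level. The gene TSS nearest to any of its annotated starts, that of DGCR2, lay 56052 nts away. SLC25A17, which carries CoA, FAD and NAD in the peroxisomal membrane, was 37565 nts from the nearest call, and SLC25A24 was 227932 nts from it. For SLC25A22 the nearest call was that of RPLP2 on the opposite strand, 11687 nts away. The distances for SLC25A42, a CoA carrier, SLC25A51 and SLC25A18 were 30168, 103329 and 61770 nts.

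SLC25A32, the folate and FAD carrier on chromosome 8, differed from these in that calls lay close to it. The gene TSS of DCAF13, on the opposite strand, was 344 nts from an annotated start of SLC25A32, and the uaTSS called for DCAF13, at position 104426881, lay on the strand of SLC25A32 and 416 nts from an annotated start of that gene. This position is thus listed as antisense initiation of DCAF13, and SLC25A32 has no gene TSS of its own in the list. SLC25A27, at 0.917 FPKM, likewise had an annotated start 209 nts from a gene TSS on the opposite strand, that of CYP39A1.

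Most calls lay close to annotated starts. Of the 31 gene TSSs, 24 were within 50 nts of an annotated transcript start of the gene (77.4%, 58.9% to 90.4%), beside 74.5% of all gene TSSs, and the median distance was 16 nts. The gene TSSs of SLC25A5, SLC25A3, SLC25A11, SLC25A15, SLC25A29 and SLC25A40 were at the annotated nucleotide. The 4 farthest, named after their values were seen, were SLC25A33 (671 nts downstream), SLC25A13 (648 downstream), SLC25A30 (462 downstream) and SLC25A28 (426 upstream). The calls of SLC25A33, SLC25A13 and SLC25A30 lay 389, 492 and 389 nts beyond the end of the annotated first exon.

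At SLC25A4 the call fell within a TATA sequence. The gene TSS, at chr4:186064393, was 27 nts upstream of the annotated start at 186064420, and the letters TATAA begin 28 nts upstream of that annotated start, 1 nt before the called nucleotide. The sequence from chr4:186064353-186064419 (hg19, plus strand), which ends 1 nt before the annotated start, is shown with TATAA in capitals. It was chosen after its values were seen.
SLC25A4: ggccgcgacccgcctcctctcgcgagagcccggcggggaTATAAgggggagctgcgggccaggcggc

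A uaTSS was called at 21 of the 31 gene TSSs (67.7%, 48.6% to 83.3%), beside 53.1% of all 10391 gene TSSs, a value within the interval. The distance from gene TSS to uaTSS had a median of 218 nts (quartiles 143 and 300), beside 200 nts over all uaTSSs. The nearest uaTSS, 32 nts upstream, belonged to SLC25A46, and the farthest, 892 nts upstream, to SLC25A33. For SLC25A33 and SLC25A30, whose gene TSSs were called far downstream, the uaTSS lay 221 and 205 nts upstream of the annotated start, although it was 892 and 667 nts from the called gene TSS. For SLC25A13, by contrast, the uaTSS lay 348 nts downstream of the annotated start, between that start and the call.

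The highest levels of the family occurred both with and without a uaTSS. SLC25A5, SLC25A3, SLC25A39, SLC25A10, SLC25A44 and SLC25A38 had a uaTSS, whereas SLC25A11, SLC25A23 and SLC25A20 did not. The 21 genes with a uaTSS had a median of 16.8 FPKM and the 10 without had 9.0, and the groups overlapped, at 0.0124 to 257 and 2.34 to 40.2. Over all gene TSSs with an FPKM, the medians were 19.5 with and 13.8 without a uaTSS.

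Downstream antisense initiation was listed for 6 of the 31 promoters (19.4%, 7.45% to 37.5%), beside 28.4% of all gene TSSs, which is again within the interval. The 5 described here were the phosphate carrier SLC25A3, the glutathione carrier SLC25A39, the ADP/ATP carrier SLC25A4, the ATP-Mg/phosphate carrier SLC25A25 and the iron carrier SLC25A37. The daTSS lay 444 nts downstream of the gene TSS at SLC25A39, 459 at SLC25A4, 475 at SLC25A37, 510 at SLC25A3 and 1473 at SLC25A25. Those of SLC25A39 and SLC25A3 fell in annotated exons and the other 3 in introns. Thus 4 of these 5 distances lay between 444 and 510 nts, a span set after the values were seen, which holds 250 of all 2956 daTSSs (8.46%). The median over all daTSSs was 507 nts, with quartiles of 313 and 804.

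These 5 genes with a daTSS had FPKM of 240 (SLC25A3), 191 (SLC25A39), 14.9 (SLC25A4), 11.9 (SLC25A25) and 4.71 (SLC25A37). The median of all 6 genes with a daTSS was 13.4, beside 15.0 for the 25 genes with a gene TSS and no daTSS, and the range of the latter, 0.0124 to 257, covered all 6. Over all gene TSSs with an FPKM the medians were 18.3 with and 16.3 without a daTSS. Both groups mix genes with and without a uaTSS. The paper limited its own comparison to genes without a uaTSS and reported no significant difference in FPKM.

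**Figure D2:**
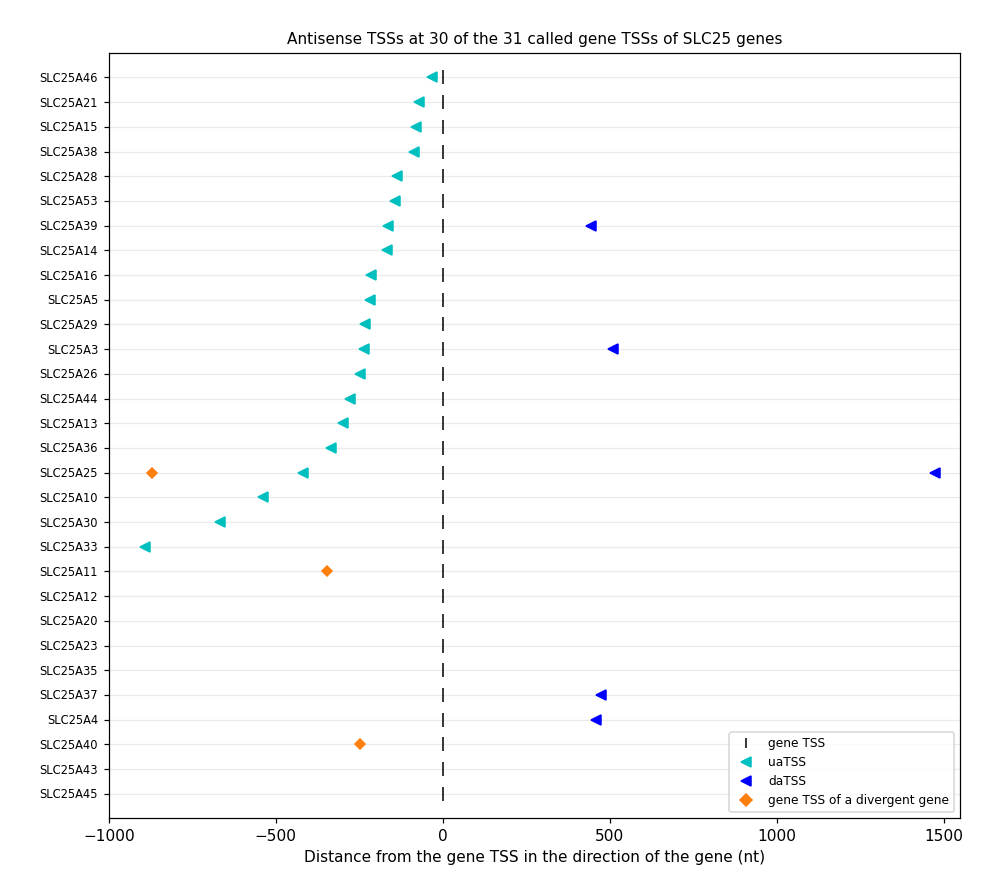
Distance in nts from the gene TSS to each uaTSS, daTSS and divergent gene TSS, in the direction of the gene, for 30 of the 31 SLC25 genes with a called gene TSS. The 20 uaTSSs shown lie between 32 and 892 nts upstream. Of the 5 daTSSs shown, 4 lie between 444 and 510 nts downstream, a span set after the values were seen.

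Both antisense TSSs were called at 4 genes, among them SLC25A3, SLC25A39 and SLC25A25 (12.9%, 3.63% to 29.8%), beside 17.5% of all gene TSSs. A further 17 genes had a uaTSS alone, and SLC25A4 and SLC25A37 had a daTSS alone. Neither was called at 8 genes (25.8%, 11.9% to 44.6%; 35.9% of all gene TSSs). These were SLC25A11, SLC25A12, SLC25A20, SLC25A23, SLC25A35, SLC25A40, SLC25A43 and SLC25A45. At SLC25A11 and SLC25A40 the gene TSS of another gene was called on the opposite strand, RNF167 at 348 nts upstream and DBF4 at 248 nts. Whether this bears on the missing uaTSS was not tested. RNF167 had 89.3 FPKM beside 40.2 for SLC25A11, and DBF4 had 7.63 beside 8.64 for SLC25A40. With NAIF1, 872 nts upstream of SLC25A25, such a divergent gene TSS within 1000 nts occurred at 3 of 31 (9.68%, 2.04% to 25.8%), beside 11.5% of all gene TSSs.

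The sequences at the starts of these 3 promoters with all 3 calls, and at the daTSS of SLC25A4, are shown because they carry every kind of start described here. Each is 30 nts of hg19, read in the direction of its own transcription, with the called first nucleotide and the one before it in capitals.
SLC25A3 gene TSS, chr12:98987444-98987473, plus strand: ggacccggaggacgtccggCCtctgtgagc
SLC25A3 uaTSS, chr12:98987218-98987247, minus strand: gttccgggtctatatttttTGagaggggtc
SLC25A3 daTSS, chr12:98987965-98987994, minus strand: ctccaagccgggtccaggcCTcaaaggctg
SLC25A39 gene TSS, chr17:42402183-42402212, minus strand: ggggcccccttggctgcttTCggcgtcggc
SLC25A39 uaTSS, chr17:42402335-42402364, plus strand: gggccgcgcgggcgagttcCAtgcctgtcc
SLC25A39 daTSS, chr17:42401728-42401757, plus strand: gatccggtgaccaagaaggGCccgtcgcct
SLC25A25 gene TSS, chr9:130830486-130830515, plus strand: cgtctccgagcccgcgctcCCagctgcaga
SLC25A25 uaTSS, chr9:130830078-130830107, minus strand: acggagagatcgtagcctcCAgtgggaaac
SLC25A25 daTSS, chr9:130831970-130831999, minus strand: attctatcttgcgtagtgtTActcttggtc
SLC25A4 daTSS, chr4:186064843-186064872, minus strand: acacccgaacgccgggcgcCAcccgacacc

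The pyrimidine-purine step that is common at initiation sites, such as the CA and TA above, was present at 16 of the 31 gene TSSs (51.6%, 33.1% to 69.8%), beside 66.1% of all gene TSSs. The 3 genes with the highest FPKM did not have it at the gene TSS: the pair was GC at SLC25A5, CC at SLC25A3 and TC at SLC25A39.

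The promoters were GC-rich. GC content in the 100 nts around the gene TSS had a median of 67.0%, beside 68.0% over all gene TSSs, and ran from 54.0% at SLC25A13 to 80.0% at SLC25A39, SLC25A10 and SLC25A12. The observed to expected CpG ratio in 500 nts had a median of 0.901, beside 0.832 over all gene TSSs. It was lowest at SLC25A45, at 0.299, and highest at SLC25A11, at 1.10.

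Promoter patterns were searched from 250 nts upstream to 50 nts downstream of each gene TSS on both strands, with positions given for the first letter of the match, where the called nucleotide is 1, the one before it is -1 and there is no 0. A match is a run of letters and no evidence of binding. The pattern of NRF1 (GCGC and TGCGC with any nucleotide between them), a factor known for nuclear genes of the respiratory chain, was found at 2 of 31 (6.45%, 0.791% to 21.4%), beside 11.1% of all gene TSSs. The 2 genes were SLC25A3, at -214, and SLC25A11, at -17, both with the letters GCGCCTGCGC. The ETS pattern (CCGGAAG) was found at 9 (29.0%, 14.2% to 48%), beside 19.7%. The YY1 pattern (ATGGCGGC) was found at 4, SLC25A26, SLC25A37, SLC25A53 and SLC25A29 (12.9%, 3.63% to 29.8%), beside 6.67%. SLC25A26 was the only gene with both the ETS and the YY1 pattern, at -66 and -36.

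GC boxes (GGGCGG) were found at 21 gene TSSs (67.7%, 48.6% to 83.3%; 72.4% of all) and CCAAT boxes (CCAAT) at 11 (35.5%, 19.2% to 54.6%; 35.3% of all). SLC25A5 had 6 GC boxes, and SLC25A39 and SLC25A15 had 5 each. A TATA sequence (TATAA or TATAT starting from 35 to 24 nts upstream on the strand of the gene) occurred at 1 gene, SLC25A5, at -29 (3.23%, 0.0816% to 16.7%), beside 3.0% of all gene TSSs. This window was counted from the call, so the TATAA that begins 28 nts upstream of the annotated start of SLC25A4 is not included. At SLC25A33, SLC25A13 and SLC25A30 all patterns were likewise searched around calls beyond the annotated first exon. In each of these 6 searches the share over all gene TSSs was within the interval for the family.

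SLC25A46 had the most ETS matches, 3, all within 60 nts of its gene TSS. With the called nucleotide as 1 and no 0, they began at -48, -16 and 5, the first as CCGGAAG and the others as its reverse complement CTTCCGG, and the uaTSS, 32 nts upstream, lay between the first and the second. The window at chr5:110074632-110074711 (hg19, plus strand) runs from 60 nts upstream to 19 nts downstream of the gene TSS and has the matches in capitals. It was chosen after its values were seen.
SLC25A46: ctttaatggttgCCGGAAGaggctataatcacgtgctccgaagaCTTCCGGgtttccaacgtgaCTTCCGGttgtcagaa

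The antisense calls were compared with annotated noncoding genes. Of the 21 uaTSSs, 1 lay within 100 nts of an annotated noncoding transcript start on its strand (4.76%), beside 13.2% of all uaTSSs. It belonged to SLC25A5, 23 nts from the start of SLC25A5-AS1, which had 0.474 FPKM beside 257 for SLC25A5. None of the 6 daTSSs did, beside 3.72% of all daTSSs. However, the authors had discarded daTSS calls closer than about 1000 nts to a known start in the same orientation. The daTSS shares are what remained after that filter, so they cannot show how often downstream antisense initiation occurs at noncoding genes. Of the other antisense genes named for family members, SLC25A21-AS1 had 4.44 FPKM, SLC25A25-AS1 had 1.40 and SLC25A30-AS1 was listed at 0. The RNA-seq libraries were strand-specific, but how the FPKM estimate used strand is not given in the sources used here, so values of overlapping antisense genes are uncertain.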

How the data were processed

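T-47D RNA-seq (3 replicates) and Start-seq (replicate 1 of 2) were analysed, and the other assays of the series (MNase-seq, FAIRE-seq) and Start-seq replicate 2 were left aside. The authors removed reads with a mean quality below 20, trimmed adapters with Cutadapt 1.2.1, aligned Start-seq reads to hg19 with Bowtie 0.12.8 and listed a TSS where a single position had at least 5 read starts, searching around RefSeq mRNA starts, then up to 1000 nts upstream for uaTSSs and 2000 nts downstream for daTSSs. The deposited score is 0 for every call, so no read counts were available. The deposited FPKM values came from TopHat 2.0.4 alignments that the authors de-duplicated with Picard and merged before running Cufflinks 2.2.1. Depth per library is therefore unknown, 0 columns of unused per-sample values were present, and 28 symbols had been turned into dates.

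A gene TSS was assigned to the gene with the nearest annotated transcript start within 1000 nts on its strand (GENCODE 44 lifted to GRCh37, whose chromosomes match hg19), and antisense calls were joined by shared identifier. Symbols of 18975 protein-coding genes matched, current or as RefSeq synonyms. Named genes were the 10 highest, those with at least 1 FPKM and no call, those under 1 with a call, those with a daTSS, the nearest and farthest uaTSS, the ADP/ATP carriers, and the highest and lowest of each role group. Others were named after their values were seen. The members and gene lists were chosen with earlier results of these data known. The log2 scale used a pseudocount of 0.1. Open reading frames were aligned end to end with edlib 1.3.9.post1. Python 3.11.15, numpy 2.4.6, scipy 1.17.1, pandas 2.3.3, pyfaidx 0.9.0.4, samtools 1.23.1 and matplotlib 3.10.9 were used. Assignment and pattern searches were tested on simulated data. Alternatives changed the distance rule, minimum FPKM, pseudocount, windows and background. Of the members, 1 is counted in totals and not reported here by name.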

Additional observations from a re-analysis of the deposited data

How the results depend on the processing

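Of 24 alternatives, 2 of them added after seeing the data, 20 left the value within its 95% interval (for the median, the interval between ranked genes). Some of these could not change it. No gene had a second call or a second listed row, and the shorter pattern window left the TATA search as it was. The intervals for shares of gene TSSs are also wide, so staying within them is a weak check. The exceptions concerned low values and the choice of background. The share of genes with a called gene TSS rose from 64.6% to 78.9% among genes with at least 1 FPKM. The median log2 FPKM of the family minus that of all listed genes was 3.86, and became 2.71 with a pseudocount of 1, 0.057 among genes with at least 1 FPKM, and 1.13 against protein-coding genes (an alternative added after seeing the data). Leaving out SLC25A6, the other addition, gave a median of 9.35 FPKM. No paired analysis was possible because the RNA-seq replicates were merged into 1 column and 1 Start-seq library gave the calls, and no replicate could be left out for the same reason. Unknown depth limits what a missing call can show, and the read threshold of 5 sets which starts are listed.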

Other observations

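The family also holds genes listed under other symbols, and with UCP1, UCP2, UCP3, MTCH1 and MTCH2 the table lists 53 of its genes. MTCH1 and MTCH2, carrier relatives of the outer mitochondrial membrane, had 161 and 110 FPKM, and UCP2, an uncoupling protein, had 134. All 3 had a called gene TSS. UCP1, known from brown fat, was listed at 0, and UCP3, known from muscle, had 0.289. Neither had a call.

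Genes that act beside the carriers were at least 1 FPKM throughout. All 7 genes listed for carrier import by TIM22 had a called gene TSS, and their levels ran from 14.8 (C19orf52, the symbol used for TIMM29) to 159 (TIMM10, a chaperone of the intermembrane space), with TIMM22, the channel, at 19.6. The pyruvate carrier, which belongs to another family, had MPC1 at 24.3 with a call and MPC2 at 39.2 without. Of the outer membrane channels, VDAC3 had 190 FPKM, VDAC1 83.1 and VDAC2 38.8, and VDAC1 was the 1 of the 3 without a called gene TSS.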
